A study of Homo sapiens with 8 samples.

Results

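Transcripts of 39 genes that encode integrin subunits and proteins of focal adhesions were examined in ES2 cells, a human ovarian cancer line, with and without knockout of KDM1A. The genes were chosen as a named list, with earlier results of these data known, and matched by symbol to the count tables. Shares of them called, set beside those of all genes, are therefore descriptions and not independent evidence. All 39 were found among 23228 genes listed. They comprise 18 integrin subunits (11 alpha and 7 beta) and 21 cytoplasmic components, and 35 of them were among the 13498 genes with enough counts to be tested. KDM1A, also called LSD1, takes methyl groups off histone H3 at lysine 4. Both control and knockout cells were kept for 48 h in vehicle or in 5 µM of LY500307, which activates oestrogen receptor beta. Each of the 4 groups held 2 libraries. The labels do not state how the knockout was made or whether it is a single clone or a pool. A difference between the knockout and control populations may therefore include differences between isolates, which cannot be told apart from the loss of KDM1A.

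Integrins are receptors made of 1 alpha and 1 beta subunit that bind the extracellular matrix. The beta 1 subunit pairs with most alpha subunits named here, alpha V pairs with several beta subunits, and beta 2 pairs with the alpha subunits of leukocytes. On the cytoplasmic side, talins and kindlins bind the beta tail and activate the receptor, and vinculin, filamin, alpha-actinins and tensins link it to actin. Focal adhesion kinase (PTK2), SRC, paxillin and p130Cas (BCAR1) carry signals from these sites. In ovarian cancer, integrins take part in the attachment of tumour cells to the peritoneal lining.

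In bulk RNA, fewer cells with a transcript and less of it per cell cannot be told apart. Gene counts totalled 24348937 to 30131097 per library. KDM1A transcript stood at 220 and 219 CPM (a gene's count relative to the scaled size of its library) in vehicle control libraries and at 75.6 and 77.8 in vehicle knockout libraries. Under LY500307 it stood at 238 and 241 in control and at 71.9 and 71.5 in knockout libraries. Knockout cells thus retained 34.9% of the control transcript under vehicle and 29.9% under LY500307. Of 16 ovarian carcinoma and epithelial markers, KRT18 and KRT7 were abundant, PAX8 lay between 1.39 and 7.23 CPM, and WFDC2 had no count in any library. Their sum lay at 752 to 759 CPM in vehicle control and 665 to 675 in vehicle knockout libraries. Under LY500307 it lay at 850 to 865 in control and 615 to 619 in knockout libraries. Of the 10 tested, 1 was at least 2-fold higher and 4 at least 2-fold lower in knockout cells under vehicle (edgeR, adjusted p under 0.05). Under LY500307, 1 was at least 2-fold higher and 2 at least 2-fold lower. Summed haematopoietic markers lay at 100 to 103 CPM in vehicle control and 73.2 to 73.6 in vehicle knockout libraries, at 116 to 117 in LY500307 control and 77.7 to 89.2 in LY500307 knockout libraries. Most of that sum was CD68, while CD3E and HBB had no count in any library. Summed endothelial markers lay between 305 and 368 CPM over the 8 libraries, mostly TIE1 and CDH5, with CLDN5 at 0 throughout. Of the 6 tested, 1 was called at least 2-fold higher and 2 at least 2-fold lower in knockout cells under each treatment. Summed fibroblast and mesothelial markers, mostly COL1A1, lay at 1303 to 1361 CPM in vehicle control and 266 to 269 in vehicle knockout libraries, and at 1205 to 1266 and 181 to 201 under LY500307. The list did not move as a whole. Of its 8 tested genes, 4 were at least 2-fold higher and 4 at least 2-fold lower in knockout cells under each treatment (edgeR, adjusted p under 0.05). Over all genes, 13.9% under vehicle and 14.1% under LY500307 differed that much. The part of all these marker genes in the results below was not tested.

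Levels of different genes were compared per length, as CPM per kilobase of merged exons. Because merged exons pool all annotated isoforms, these values are approximate. Among alpha subunits, the laminin receptor chains ITGA6 and ITGA3 led, with 104 ± 4.17 and 73.1 ± 1.25 CPM per kilobase (SD, n = 2) in vehicle control cells, followed by the fibronectin receptor chain ITGA5 at 22.1 ± 0.12. ITGB1 led the beta subunits at 60.5 ± 1.48, ahead of ITGB5 at 22.4 ± 1.30 and ITGB2 at 9.68 ± 0.67. The actin cross-linkers ACTN4 and FLNA and the LIM protein ZYX led the cytoplasmic components at 171 ± 1.48, 142 ± 3.12 and 126 ± 2.92. In vehicle knockout cells FLNA stood first at 224 ± 5.93, ahead of ACTN4 at 121 ± 2.95. At the transcript level, control ES2 cells carried mainly laminin-binding and fibronectin-binding alpha chains with beta 1.

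At the other end, 4 members had too few counts to be tested. ITGA8 had 3 counts in all, from LY500307-treated control cells. ITGA11, a collagen receptor chain, had 5 counts over the vehicle control group, 1 over the vehicle knockout group, 9 over the LY500307 control group and 0 over the LY500307 knockout group, where a count of 0 allows up to 3. ITGB6 had 5 to 14 counts over a group and the tensin TNS1 had 7 to 15.

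Summed per length, the alpha subunits stood at 222 ± 4.16 CPM per kilobase in vehicle control cells and 177 ± 1.86 in vehicle knockout cells, and at 213 ± 2.81 and 169 ± 2.48 under LY500307. The summed beta subunits stood at 99.3 ± 0.33 and 67.4 ± 0.73 under vehicle, and at 105 ± 0.50 and 60.9 ± 2.35 under LY500307. Both sums were lower in every knockout library than in every control library. The share of ITGB3 in the summed beta subunits was 4.71% ± 0.16 in vehicle control cells and 0.954% ± 0.043 in vehicle knockout cells, and 7.25% ± 0.34 and 1.60% ± 0.12 under LY500307. ITGB1 made up 61.0% ± 1.69 of the beta sum in vehicle control cells, 65.7% ± 2.47 in vehicle knockout cells, 53.0% ± 1.08 in LY500307 control cells and 63.9% ± 0.82 in LY500307 knockout cells. These shares are descriptions, without a test. Like the levels per length they are approximate, and the SD covers only the spread between 2 libraries.

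**Figure D1:**
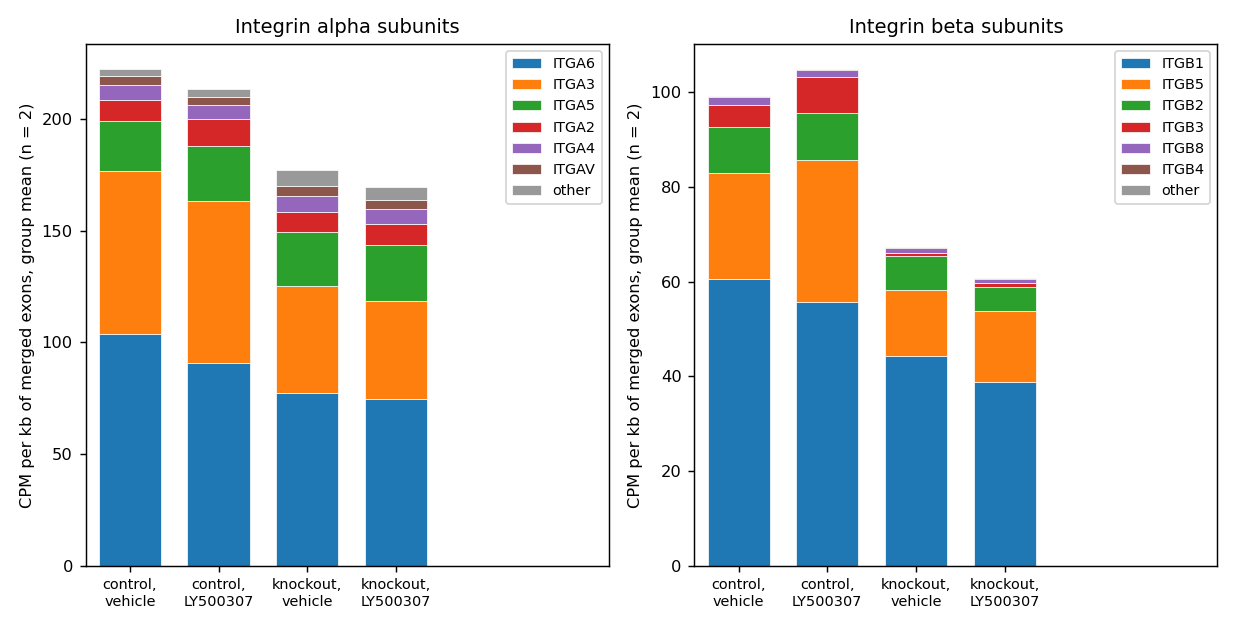
Stacked group means (n = 2 libraries) of integrin alpha subunits (left) and beta subunits (right) in CPM per kilobase of merged exons for the 4 groups. Both stacks are lower in knockout cells, and ITGA6, ITGA3 and ITGB1 form most of each stack in all groups.

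Knockout was compared with control under vehicle to ask which adhesion transcripts differ when KDM1A is lost. Each gene was tested with edgeR's quasi-likelihood test, and a gene was called at a Benjamini-Hochberg adjusted p under 0.05 over all genes tested. Of the 35 tested members, 9 were higher and 19 lower in knockout cells, so 80% were called. Over all genes tested the share was 64.0%, with 30.7% higher and 33.3% lower. The members' median log2 fold change was -0.22, beside -0.01 over all genes. Differences of at least 2-fold were called for 5 members, TLN2, ITGA10 and FERMT1 higher and ITGB3 and ITGA7 lower, beside 13.9% of all genes (5.95% higher and 7.93% lower). By role, all 3 laminin-binding alpha chains and 5 of 6 beta chains were lower, 4 of 5 adhesion signalling genes were lower, and the activators and actin linkers were split.

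ITGB3, on chromosome 17 (45331193 to 45391109, plus strand, hg19), encodes the beta 3 chain, which pairs with alpha V to form a vitronectin receptor. Its level was 32.6 and 31.2 CPM in the vehicle control libraries, 4.49 and 4.28 in vehicle knockout, 50.4 and 53.5 in LY500307 control, and 6.79 and 6.46 in LY500307 knockout. All 4 knockout libraries lay below all 4 control libraries, and in each population the LY500307 pair lay above the vehicle pair. The knockout difference was -2.86 on the log2 scale (SE 0.11, adjusted p = 1.20e-22), which left 13.7% of the control level. The alpha chain that completes the platelet form of this receptor, ITGA2B, had 0 to 4 counts over a group.

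Among the remaining beta chains, ITGB5 also pairs with alpha V and binds vitronectin. It lies on chromosome 3 (124480795 to 124620265, minus strand, hg19). RefSeq lists 3 starts for it, and the 250 bases before the first one listed are shown because ITGB5 was 1 of 2 members whose response to LY500307 differed between the populations (chr3:124901419-124901668, minus strand, GRCh38.p14), with matches to the GC box letters GGGCGG on either strand in capitals.
ITGB5 promoter: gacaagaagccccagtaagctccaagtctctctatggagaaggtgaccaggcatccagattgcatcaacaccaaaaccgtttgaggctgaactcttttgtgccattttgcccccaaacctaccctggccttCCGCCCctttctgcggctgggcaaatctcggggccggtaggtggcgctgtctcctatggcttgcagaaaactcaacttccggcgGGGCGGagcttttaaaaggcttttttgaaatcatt
The window holds 2 such matches, and GC boxes occur in 18 of the 30 member windows that RefSeq's table covers. That stands beside 67% of 9262 windows of tested genes and 42.3% of all 27305 windows of this length. The 30 member windows, here and for the motifs below, include those of ITGA8, ITGA11, ITGB6 and TNS1, which were not tested.
ITGB5 stood at 140 and 152 CPM in vehicle control, 85.6 and 96.2 in vehicle knockout, 191 and 199 in LY500307 control, and 91.5 and 102 in LY500307 knockout libraries. The control libraries were all above the knockout libraries, and the LY500307 and vehicle pairs overlapped in knockout cells but not in control cells. Its knockout difference under vehicle was -0.68 (log2, SE 0.060, adjusted p = 4.41e-12).

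ITGB1, the common partner of most alpha chains, stood at 897 and 866 CPM in vehicle control, 656 and 632 in vehicle knockout, 825 and 796 in LY500307 control, and 556 and 577 in LY500307 knockout libraries. Within each treatment the knockout pair was below the control pair, with a log2 difference of -0.45 (SE 0.040, adjusted p = 6.76e-12) under vehicle. ITGB8, a further alpha V partner that binds latent TGF-beta, was at 27.2 and 25.1 CPM in vehicle control, 16.8 and 16.9 in vehicle knockout, 21.4 and 18.8 in LY500307 control, and 12.7 and 11.8 in LY500307 knockout libraries. It was lower by knockout under vehicle (log2 -0.64, SE 0.094, adjusted p = 3.49e-07).

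ITGB2, the beta chain known from leukocytes, stood at 67.2 and 74.1 CPM in vehicle control and 48.5 and 56.2 in vehicle knockout libraries. With LY500307 it stood at 74.7 and 73.1 in control and 35.5 and 38.1 in knockout libraries, the lowest pair of the 4. The knockout difference under vehicle was -0.43 (log2, SE 0.070, adjusted p = 2.17e-06). Its leukocyte partners were nearly absent: ITGAL and ITGAD had no count in any library, ITGAM had 1 to 3 counts over a group, and ITGAX had 10, 2, 40 and 9 counts over control and knockout groups under vehicle and then control and knockout groups under LY500307. The leukocyte gene PTPRC had 0 to 4 counts over a group. ITGB2 shares 4.15% of its exon bases with the antisense gene ITGB2-AS1, and reads from those shared bases cannot be told apart here. ITGB4, the hemidesmosome chain that pairs with alpha 6, was low at 1.09 to 2.32 CPM and was not called in any comparison.

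The laminin receptor chains were lower in knockout cells. ITGA3 stood at 708 and 725 CPM in vehicle control and 458 and 484 in vehicle knockout libraries, and at 707 and 714 against 418 and 444 under LY500307. ITGA6 stood at 713 and 673 CPM in vehicle control and 532 and 498 in vehicle knockout libraries, and at 626 and 588 against 498 and 498 under LY500307. In neither gene did a control and a knockout library overlap. The log2 differences under vehicle were -0.61 for ITGA3 (SE 0.042, adjusted p = 9.92e-15) and -0.43 for ITGA6 (SE 0.044, adjusted p = 1.58e-10). ITGA7, a laminin receptor chain best known from muscle, was scarce: 2.43 and 2.13 CPM in vehicle control, 0.607 and 0.635 in vehicle knockout, 2.76 and 3.5 in LY500307 control, and 0.750 and 1.08 in LY500307 knockout libraries. Its difference under vehicle was -1.87 (log2, SE 0.32, adjusted p = 4.74e-06).

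Collagen-binding chains did not move as a group. ITGA10, a collagen receptor chain known from cartilage, lies on chromosome 1 (145524969 to 145543868, plus strand, hg19). The 250 bases before its RefSeq start are shown because it was the alpha chain with the largest rise (chr1:145910051-145910300, minus strand, GRCh38.p14, a build that lists the gene on the opposite strand). Capitals mark matches to the CCAAT box (CCAAT) and to the TEAD element (GGAATG), both found here on the reverse strand.
ITGA10 promoter: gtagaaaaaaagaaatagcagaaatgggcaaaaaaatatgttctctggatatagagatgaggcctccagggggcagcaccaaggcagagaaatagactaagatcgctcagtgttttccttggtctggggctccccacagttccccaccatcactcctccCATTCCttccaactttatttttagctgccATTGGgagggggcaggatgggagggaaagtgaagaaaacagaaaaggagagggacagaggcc
A CCAAT match occurs in 6 of the 30 member windows, beside 35.6% of windows of tested genes and 33% of all windows. A GGAATG match occurs in 4, beside 9.58% and 11.9%. Of the other motifs searched on both strands, TATAAA was in 1 member window (5.32% of tested genes, 11.1% of all) and the AP-1 letters TGANTCA in 2 (4.06% and 6.6%).
ITGA10 stood at 14.2 and 13.9 CPM in vehicle control, 38.5 and 40.8 in vehicle knockout, 13.0 and 14.0 in LY500307 control, and 30.4 and 29.4 in LY500307 knockout libraries. All knockout libraries were above all control libraries, and the LY500307 knockout pair lay below the vehicle knockout pair. The difference under vehicle was 1.5 (log2, SE 0.087, adjusted p = 7.74e-17). ITGA1 (log2 -0.16, adjusted p = 0.164) and ITGA2 (log2 -0.10, adjusted p = 0.131), both collagen receptor chains, were not called under vehicle.

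The RGD-binding chains were slightly higher in knockout cells under vehicle. ITGAV had a log2 difference of 0.30 (SE 0.062, adjusted p = 8.98e-05). ITGA5, which pairs with beta 1 to bind fibronectin, stood at 164 and 162 CPM in vehicle control, 180 and 177 in vehicle knockout, 177 and 186 in LY500307 control, and 182 and 186 in LY500307 knockout libraries. The vehicle control pair was the lowest, and the other 3 pairs lay within 177 to 186 CPM. Its difference of 0.13 under vehicle (SE 0.048, adjusted p = 0.0157) was no longer called without vehicle control library 1 (0.0528), vehicle control library 2 (0.0762) or vehicle knockout library 1 (0.0837). ITGA4, which binds fibronectin and VCAM1, was not called in any comparison, and 26.4% of its exon bases are shared with CERKL.

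**Figure D2:**
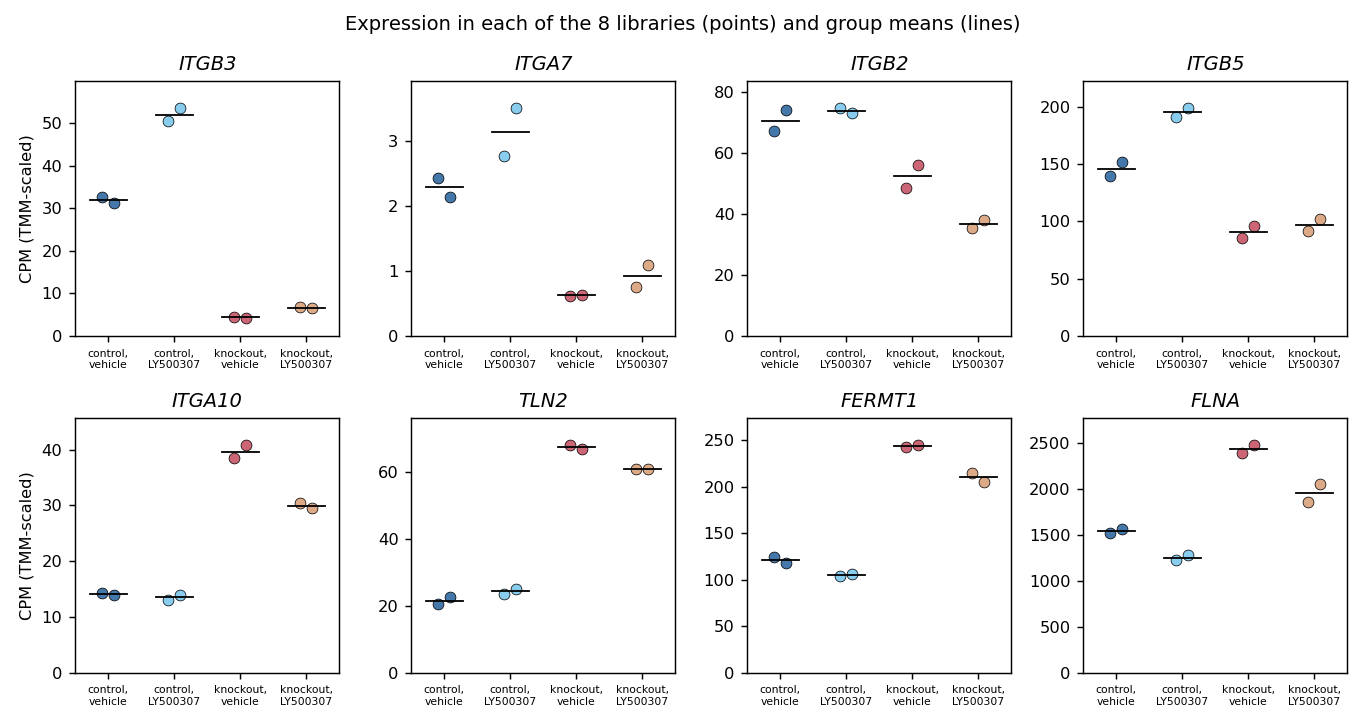
CPM in each of the 8 libraries (points, with group means as lines) for 8 members, grouped by population and treatment, each panel with its own axis from 0. ITGB3 and ITGA7 are lower, and ITGA10, TLN2, FERMT1 and FLNA higher, in every knockout library than in any control library. ITGB2 is lowest in the LY500307 knockout pair.

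Among the proteins that activate integrins, 1 talin and 1 kindlin were higher in knockout cells. TLN2, the talin less widely expressed than TLN1, lies on chromosome 15 (62682725 to 63136830, plus strand, hg19). The 250 bases before its RefSeq start are shown because it had the largest rise of all members (chr15:62390300-62390549, plus strand, GRCh38.p14). None of the 5 motifs searched is spelled in this window, so it has no capitals, and its GC content is 74.4%.
TLN2 promoter: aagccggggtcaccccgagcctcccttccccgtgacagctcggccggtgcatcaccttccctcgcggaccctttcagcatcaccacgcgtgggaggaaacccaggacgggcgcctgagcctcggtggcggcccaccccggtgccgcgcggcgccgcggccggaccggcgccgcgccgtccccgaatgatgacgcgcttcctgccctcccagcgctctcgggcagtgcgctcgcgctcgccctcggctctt
TLN2 stood at 20.4 and 22.6 CPM in vehicle control, 67.9 and 66.7 in vehicle knockout, 23.4 and 25.0 in LY500307 control, and 60.8 and 60.9 in LY500307 knockout libraries. The knockout libraries were all far above the control libraries. The log2 difference under vehicle was 1.65 (SE 0.074, adjusted p = 4.52e-20). Per length, TLN2 made up 1.41% ± 0.11 of the 2 talins in vehicle control cells and 4.84% ± 0.12 in vehicle knockout cells, with TLN1 the main talin transcript in both. TLN1 itself was lower in knockout cells (log2 -0.18, SE 0.039, adjusted p = 0.000120).

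FERMT1, kindlin-1, is best known from epithelia, and FERMT2, kindlin-2, is widely expressed. FERMT1 stood at 124 and 119 CPM in vehicle control, 243 and 245 in vehicle knockout, 104 and 106 in LY500307 control, and 215 and 206 in LY500307 knockout libraries. It was 2.01-fold higher in knockout cells under vehicle (log2 1.01, SE 0.049, adjusted p = 4.15e-19). FERMT2 was not called (log2 -0.06, adjusted p = 0.347). Per length, FERMT1 made up 51.2% ± 0.82 of both kindlins in vehicle control cells and 68.8% ± 0.96 in vehicle knockout cells.

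The ILK, PINCH and parvin proteins form a scaffold at the beta tail. PARVA was lower in knockout cells (log2 -0.57, SE 0.052, adjusted p = 1.06e-11), as was ILK (log2 -0.29, SE 0.050, adjusted p = 4.38e-06), while the PINCH gene LIMS1 was higher (log2 0.50, SE 0.059, adjusted p = 4.13e-09). ILK shares 68.1% of its exon bases with TAF10, and LIMS1 has near-identical copies in the genome, so both values are uncertain.

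Actin linkers moved in both directions. FLNA, which cross-links actin filaments, stood at 1521 and 1569 CPM in vehicle control, 2388 and 2479 in vehicle knockout, 1225 and 1280 in LY500307 control, and 1857 and 2056 in LY500307 knockout libraries. It was higher in all knockout libraries, with a log2 difference of 0.65 under vehicle (SE 0.041, adjusted p = 7.46e-16). ACTN4, a non-muscle alpha-actinin, stood at 1039 and 1052 CPM in vehicle control, 729 and 754 in vehicle knockout, 855 and 911 in LY500307 control, and 596 and 609 in LY500307 knockout libraries, and was lower (log2 -0.50, SE 0.040, adjusted p = 6.17e-13). Its paralog ACTN1 stood at 510 and 526, 663 and 682, 451 and 470, and 577 and 584 CPM in the same order of groups, and was higher (log2 0.38, SE 0.041, adjusted p = 6.88e-10). The paralogs differed in opposite directions, and per length the share of ACTN1 in both was 17.5% ± 0.20 in vehicle control and 27.9% ± 0.09 in vehicle knockout cells. Most of the ACTN1 difference was shared with its chromosome arm. With the median of all tested genes on the arm subtracted, as described below, 0.08 remained for ACTN1 and -0.33 for ACTN4. VCL, vinculin, was lower (log2 -0.45, SE 0.039, adjusted p = 2.62e-12). ACTN4 shares 14.2% of its exon bases with CAPN12, and VCL 11.1% with AP3M1. The tensin TNS3 stood at 179 and 181 CPM in vehicle control, 198 and 204 in vehicle knockout, 169 and 172 in LY500307 control, and 161 and 177 in LY500307 knockout libraries. Its vehicle knockout pair was the highest. Its call (log2 0.16, adjusted p = 0.00443) was lost without vehicle knockout library 2 (0.0526).

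ZYX, a LIM protein of mature adhesions, stood at 406 and 419 CPM in vehicle control, 341 and 369 in vehicle knockout, 406 and 436 in LY500307 control, and 342 and 340 in LY500307 knockout libraries, lower in all knockout libraries (log2 -0.22 under vehicle, SE 0.046, adjusted p = 0.000108). The actin elongation factor VASP was lower as well (log2 -0.23, SE 0.060, adjusted p = 0.000987). LPP, the zyxin relative, was not called (log2 -0.02, adjusted p = 0.806).

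Adhesion signalling genes were lower in knockout cells apart from the kinase SRC (log2 0.02, adjusted p = 0.733). PTK2, focal adhesion kinase, fell by 0.76 on the log2 scale (SE 0.052, adjusted p = 6.77e-15). The scaffold BCAR1 fell by 0.74 (SE 0.064, adjusted p = 2.44e-12), and TGFB1I1, a paxillin relative also called Hic-5, by 0.44 (SE 0.079, adjusted p = 9.41e-06). Paxillin, PXN, differed by -0.16 (SE 0.045, adjusted p = 0.00200), a call lost without vehicle knockout library 1 (log2 -0.10, adjusted p = 0.0979). Annotated antisense genes overlap 27.2% of the exon bases of PXN.

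Whole chromosome arms differed between the 2 populations, so each member was set beside the median of all tested genes on its arm. The arm of PTK2 (8q) had a median log2 difference of -0.36 under vehicle, that of TGFB1I1 (16p) -0.66, that of ITGAV and LIMS1 (2q) 0.33, and that of ITGB1 (10p) 0.31. Of the 28 members called, 26 kept their sign after the arm median was subtracted, and ITGAV and TGFB1I1 did not. Several of the 26 were much smaller beside their arm: ACTN1 went from 0.38 to 0.08, LIMS1 from 0.50 to 0.17, ZYX from -0.22 to -0.06 and VASP from -0.23 to -0.07. ITGB3 stood apart from its arm (17q, -0.18), as did TLN2 (15q, -0.26), ITGA10 (1q, 0.16) and FERMT1 (20p, 0.03). For ITGAV and TGFB1I1 the difference was no larger than the median of the genes on their arm.

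Knockout was compared with control under LY500307 as well. This contrast shares no library with the one under vehicle, but both come from 1 fit with a common estimate of the spread. Of 35 members, 7 were higher and 21 lower, beside 66.2% of all genes called (32.6% higher and 33.6% lower). The median log2 difference was -0.30, against -0.01 over all genes. Differences of at least 2-fold were called for 7 members, beside 14.1% of all genes (5.47% higher and 8.61% lower): TLN2 (1.33), ITGA10 (1.15) and FERMT1 (1.00) higher, and ITGB3 (-2.97), ITGA7 (-1.76), ITGB5 (-1.01) and ITGB2 (-1.0) lower, on the log2 scale. Because FERMT1, ITGB5 and ITGB2 lie just past the limit of 1, the count was 4 without LY500307 knockout library 1. The SE was 0.094 for ITGB3 (adjusted p = 1.09e-24), 0.072 for TLN2 (8.25e-18), 0.058 for ITGB5 (5.93e-17) and 0.071 for ITGB2 (1.58e-14).

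The same direction was called under both treatments for 26 of 35 members, or 74.3%, beside 55.1% of all genes tested. Of these, 7 were higher (ACTN1, FERMT1, FLNA, ITGA10, ITGAV, LIMS1 and TLN2) and 19 lower, among them all laminin-binding chains, 5 beta chains, VCL, ACTN4, PTK2, BCAR1 and PXN. Both contrasts compare the same 2 populations, so a difference of a whole arm can appear in both. With the arm median subtracted under LY500307, ACTN1 went from 0.33 to 0.02 and TGFB1I1 from -0.67 to -0.02. No member was called in opposite directions. ITGA5 (log2 0.02, adjusted p = 0.715) and TNS3 (log2 -0.01, adjusted p = 0.863) were called under vehicle only. ITGA1 (log2 -0.41, SE 0.097, adjusted p = 0.000443) and ITGA2 (log2 -0.33, SE 0.058, adjusted p = 6.67e-06) were called under LY500307 only. For none of these 4 did the difference between treatments itself pass the test (adjusted p of 0.172 to 0.473). ITGAV under LY500307 (log2 0.22, adjusted p = 0.00253) lost its call without LY500307 control library 2 (0.0867), and relative to their arm ITGAV and LIMS1 changed sign.

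**Figure D3:**
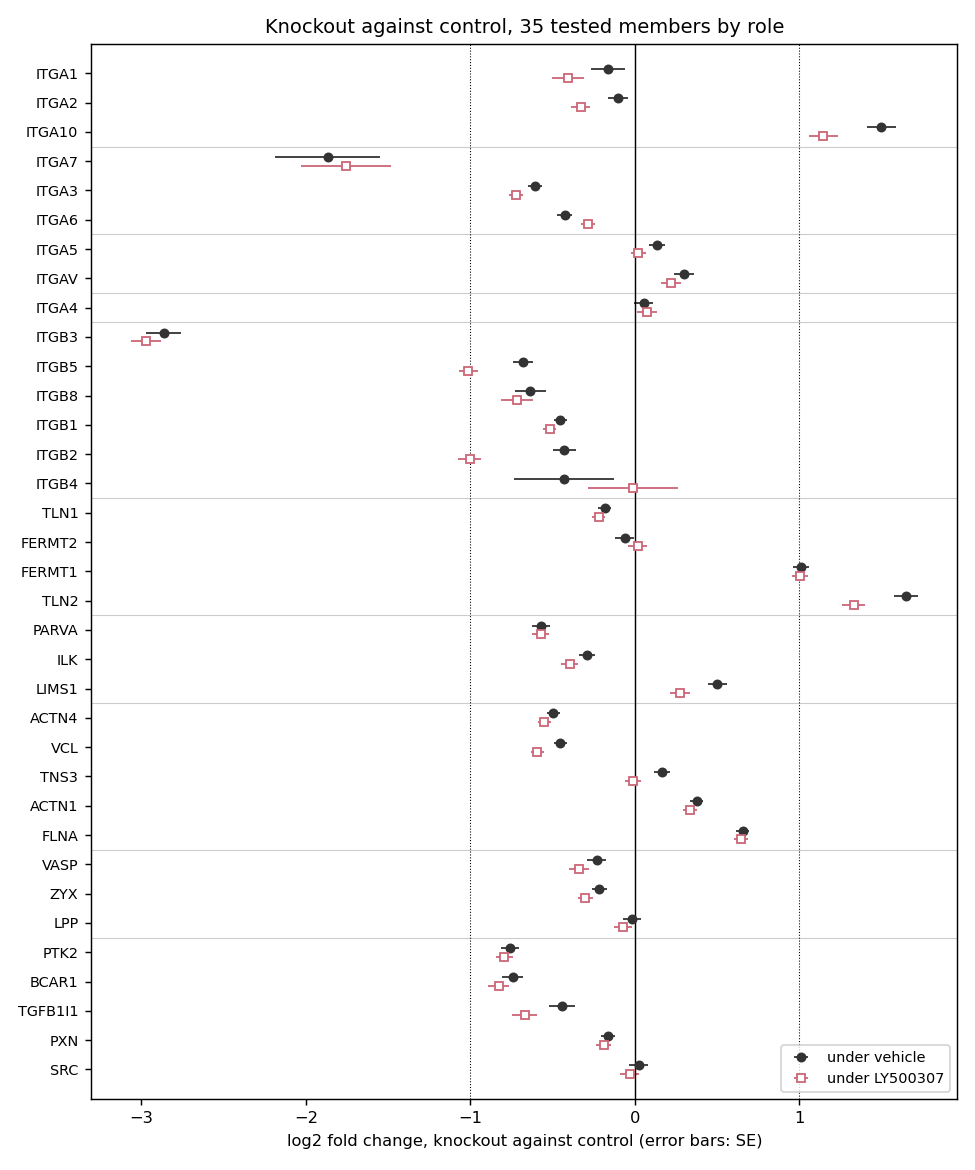
Log2 fold change of knockout against control for the 35 tested members, grouped by role, under vehicle (filled circles) and LY500307 (open squares), with SE as bars and dotted lines at 2-fold. The points of a gene lie close together for most members, with ITGB3 farthest to the left and TLN2 farthest to the right.

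LY500307 was then compared with vehicle in control cells, to ask how the receptor agonist bears on adhesion transcripts where KDM1A is present. Of 35 members, 7 were higher and 8 lower, or 42.9%, beside 26.3% of all genes (12.3% higher and 14.0% lower). The larger share called did not go with larger changes: the median absolute log2 difference was 0.12 for members and 0.15 for all genes. All members' differences were under 2-fold, a size called for 1.71% of all genes, and their median was 0.00. With library totals in place of scaled library sizes the split was 10 higher and 6 lower. The largest change was in ITGB3, which was 1.63-fold higher (log2 0.70, SE 0.078, adjusted p = 3.81e-08). ITGB5 was higher by 0.42 (SE 0.057, adjusted p = 1.40e-06). ITGA2, the alpha 2 chain of a collagen receptor, stood at 78.2 and 72.2 CPM in vehicle control, 97.0 and 94.7 in LY500307 control, 69.4 and 70.6 in vehicle knockout, and 74.8 and 77.7 in LY500307 knockout libraries. Its LY500307 control pair was the highest, with a log2 difference of 0.35 (SE 0.059, adjusted p = 3.23e-05).

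Of the 8 members lower with LY500307 in control cells, 3 were actin linkers. FLNA fell by 0.30 (SE 0.041, adjusted p = 1.35e-06) and ACTN4 by 0.24 (SE 0.040, adjusted p = 2.37e-05). LPP stood at 112 and 108 CPM in vehicle control, 91.6 and 89.4 in LY500307 control, 111 and 106 in vehicle knockout, and 86.7 and 85.4 in LY500307 knockout libraries. The 4 LY500307 libraries of LPP were all below the 4 vehicle libraries, with a log2 difference of -0.28 in control cells (SE 0.055, adjusted p = 0.000279). ITGA6 differed by -0.19 (SE 0.043, adjusted p = 0.00128) and FERMT1 by -0.21 (SE 0.050, adjusted p = 0.00211). With library totals these became -0.12 for ITGA6 (adjusted p = 0.0373) and -0.14 for FERMT1 (0.0363).

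Calls in control cells depended on single libraries for several members. Without LY500307 control library 2, adjusted p was 0.0553 for ITGA6, 0.0659 for ITGB8 (log2 -0.38 with all libraries), 0.0955 for ITGA1 (0.33), 0.207 for ITGA5 (0.15), 0.197 for ITGB1 (-0.12) and 0.0697 for BCAR1 (0.23), and 9 members were called. ITGA1, ITGA5, ITGB1 and BCAR1 also lost their calls without vehicle control library 1 (0.0697, 0.0695, 0.205 and 0.162), where BCAR1 had a log2 difference of 0.15. ITGA1 and ITGA5 lost them without vehicle control library 2 (0.0682 and 0.0981), and ACTN1 (log2 -0.17) without LY500307 control library 1 (0.0611). ITGB1 and ACTN1 were not called with library totals (log2 -0.05 and -0.10, adjusted p = 0.386 and 0.0678). TGFB1I1 was higher by 0.30 (SE 0.075, adjusted p = 0.00306).

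In knockout cells, 13 members were lower with LY500307 than with vehicle and 1, ITGB3, was higher, or 40% in all, beside 20.4% of all genes (9.16% higher and 11.3% lower). The median log2 difference was -0.11, against 0.01 over all genes, and all members' differences were under 2-fold, a size called for 0.778% of all genes. In absolute size the median log2 difference was 0.13 for members and 0.14 for all genes. With library totals 10 members were lower and 4 higher. All 5 tested actin linkers were lower: FLNA by 0.31 (SE 0.041, adjusted p = 7.98e-07), ACTN4 by 0.30 (SE 0.040, adjusted p = 1.41e-06), TNS3 by 0.25 (SE 0.049, adjusted p = 0.000345), ACTN1 by 0.21 (SE 0.041, adjusted p = 0.000242) and VCL by 0.13 (SE 0.039, adjusted p = 0.0189). LPP fell by 0.33 (SE 0.055, adjusted p = 2.92e-05). VCL, TLN1 (log2 -0.12, adjusted p = 0.0218) and ITGA3 (log2 -0.13, adjusted p = 0.0270) were not called with library totals (log2 -0.07 for each, adjusted p = 0.213, 0.234 and 0.241). Without vehicle knockout library 2 their adjusted p was 0.0764, 0.150 and 0.301, and without LY500307 knockout library 1 it was 0.0626, 0.143 and 0.194. VCL and TLN1 were not called without vehicle knockout library 1 either (0.0983 and 0.0534).

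Integrin chains lower with LY500307 in knockout cells included ITGB2 by 0.51 (SE 0.073, adjusted p = 3.76e-06), ITGA10 by 0.41 (SE 0.078, adjusted p = 0.000239), ITGB8 by 0.46 (SE 0.10, adjusted p = 0.00100) and ITGB1 by 0.19 (SE 0.041, adjusted p = 0.00101). ITGB3 was 1.51-fold higher (log2 0.60, SE 0.13, adjusted p = 0.000980), from a knockout level far below that of control cells. BCAR1 was higher with LY500307 in control cells and had a log2 difference of 0.15 in knockout cells that was not called (SE 0.065, adjusted p = 0.0976). Without vehicle knockout library 2 it was called (log2 0.24, adjusted p = 0.0360), as it was without LY500307 knockout library 1 (0.21, 0.0438) and with library totals (0.21, 0.0182).

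Called in the same direction by LY500307 in both populations were 8 of 35 members, or 22.9%, beside 10.9% of all genes. ITGB3 was higher in both, and ACTN1, ACTN4, FERMT1, FLNA, ITGB1, ITGB8 and LPP were lower in both. The calls of ACTN1, ITGB1 and ITGB8 in control cells were among those that depended on single libraries, as given above. No member was called in opposite directions. For ITGB3 the test of the difference between populations gave -0.11 (log2, SE 0.15, adjusted p = 0.808).

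**Figure D4:**
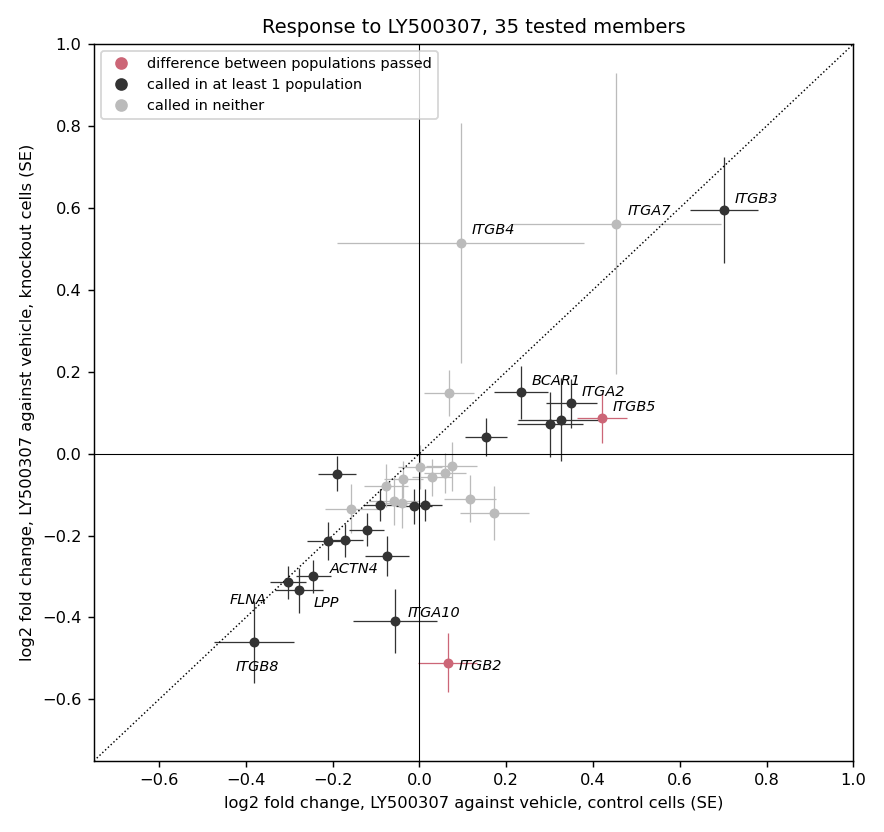
Log2 fold change with LY500307 in control cells (x axis) and in knockout cells (y axis) for the 35 tested members, with SE as bars and the diagonal of equal response dotted. ITGB3 is highest in both, FLNA, ACTN4, LPP and ITGB8 are low in both, and ITGB2 and ITGB5 (red) lie below the diagonal.

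The interaction asked whether the response to LY500307 differed between the 2 populations. It was called for 2 of 35 members, ITGB2 and ITGB5, both with a lower response in knockout cells, or 5.71%, beside 1.62% of all genes (0.526% higher and 1.09% lower). ITGB2 changed by 0.07 (log2, adjusted p = 0.516) in control cells and by -0.51 in knockout cells, a difference of -0.58 (SE 0.10, adjusted p = 0.000724). That call held under all 13 alternatives, with adjusted p up to 0.0222. ITGB5 changed by 0.42 in control cells and by 0.09 (adjusted p = 0.330) in knockout cells, a difference of -0.33 (SE 0.083, adjusted p = 0.0299). This call was lost without vehicle control library 1 (0.168), vehicle knockout library 2 (0.296), LY500307 control library 1 (0.0652), LY500307 control library 2 (0.148) or LY500307 knockout library 1 (0.117). TLN2 had a difference of -0.32 (SE 0.10, adjusted p = 0.115), which was not called.

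Other genes of the pathway were examined from 4 lists, of integrin regulators, focal adhesion genes, signalling genes and integrin ligands. These lists too were chosen with earlier results of these data known, so their shares are descriptions. Their counts stand beside 64.0% of all genes called under vehicle, 30.7% higher and 33.3% lower. Of 14 tested integrin subunits and regulators outside the 39, 1 was higher and 8 lower in knockout cells under vehicle (64.3% called). The tetraspanin CD9 differed by -2.85 on the log2 scale (SE 0.085), CAV1, the coat protein of caveolae, by -1.54 (SE 0.039), the integrin-associated CD47 by -0.99 (SE 0.056), and SLC3A2, the CD98 heavy chain that binds beta tails, by 1.19 (SE 0.048). Of 35 further focal adhesion and actin linkage genes, 8 were higher and 20 lower (80%), with PDLIM1, an alpha-actinin partner, at -2.86 (SE 0.072), CSRP1 at -1.0 (SE 0.044), FLNC at -0.86 (SE 0.044) and the intermediate filament gene VIM at 0.51 (SE 0.033). Of 37 signalling genes, 9 were higher and 17 lower (70.3%), with the kinase YES1 at -1.04 (SE 0.050), ROCK2 at -0.77 (SE 0.062), ASAP1 at -0.36 (SE 0.042) and BCAR3, which binds BCAR1, at 0.52 (SE 0.047). The medians of these lists were -0.64, -0.19 and -0.09, beside -0.01 over all genes. No arm median was subtracted for the listed genes. Under vehicle the arm median was -0.93 for 18p, the arm of YES1, and -0.36 for 8q, the arm of ASAP1. It was 0.28 for 1p, the arm of BCAR3.

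Ligands of the members were listed as well. Of 35 tested integrin ligands, 11 were higher and 21 lower in knockout cells under vehicle, 19 of them by at least 2-fold, with a median of -0.48. The share called was 91.4%, beside 64.0% of all genes, of which 13.9% were called at 2-fold or more. Fibronectin, FN1, the ligand of the ITGA5 and ITGB1 receptor, stood at 3475 and 3367 CPM in vehicle control, 883 and 897 in vehicle knockout, 3351 and 3507 in LY500307 control, and 674 and 707 in LY500307 knockout libraries (log2 -1.94 under vehicle, SE 0.039). THBS1, a ligand of CD47 and of alpha V and beta 3, differed by -3.23 (SE 0.065) and COL1A1 by -2.47 (SE 0.051). LAMB3, a laminin chain bound by the ITGA3 and ITGA6 receptors, differed by 2.36 (SE 0.044), opposite to those chains. The interaction was called for 11 of 35 ligands, or 31.4%, beside 1.62% of all genes (1.09% lower), each with a lower response in knockout cells: FN1, COL1A1, COL6A2, COL6A3, LAMA4, LAMB1, LAMB2, LAMC1, TNC, CTGF and MFGE8. Their differences ran from -0.22 for CTGF (SE 0.055, adjusted p = 0.0299) to -0.72 for LAMB2 (SE 0.092, adjusted p = 7.52e-06). GIT2 was the only signalling gene outside the 39 whose interaction was called (log2 -0.31, SE 0.080, adjusted p = 0.0397). GIT2 shares 22.2% of its exon bases with TCHP. The calls of GIT2 and of the ligands were not followed under the alternatives.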

How the data were processed

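RNA was sequenced as 50-base single-end reads on an Illumina HiSeq 3000, per the labels' protocols. The authors deposited whole-number read counts per gene symbol. The submitters' processing notes name bcl2fastq, TopHat2 2.0.8b, HTSeq and the build hg19. Annotation and strand setting of the counting were not given in the sources used here. Both a total RNA guide and a stranded mRNA kit are named, so overlapping antisense genes cannot be told apart. Per the labels' series text samples were run in duplicate, and separate cultures are not mentioned, so the spread that p-values rest on may be technical. Counts of duplicates differed beyond sampling noise (chi-square over degrees of freedom 3.05 to 4.30), and both were kept. Summary entries of the counter were removed, among them reads outside genes (10.7% to 12.8% of uniquely aligned reads). The number of unused sample columns was 0.

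Counts were analysed with edgeR 4.0.16 in R 4.3.3 (filterByExpr, TMM scaling, 1 quasi-likelihood fit of 4 group means over all 8 libraries, glmQLFTest, two-sided, Benjamini-Hochberg at 0.05 over 13498 genes). This left 4 residual degrees of freedom and a biological coefficient of variation of 3.95%. The 5 comparisons, and alternatives with DESeq2 1.42.0, library totals, other filters, only the groups compared, a replicate block or 1 library left out, were computed over the whole table, and the procedure was tested on simulated data. Deviations of libraries with the same number correlated by 0.00061 to 0.070 between groups, so the numbers were not used as pairs. Values are means ± SD of 2 libraries. Intervals from counts of 0 cover counting error only. Values in every library were given for members at least 2-fold changed by knockout, for up to 8 members by smallest p in each LY500307 comparison and the interaction, and for the 3 highest members of each class per length. Up to 4 genes of each further list were named by smallest p. The members and lists were chosen with earlier results of these data known. Positions and exon lengths came from GENCODE 44 lifted to hg19, and arm medians used 12889 tested genes on 41 arms. Promoters came from RefSeq (GRCh38.p14), matched by symbol for 30 of 39 members. ITGA3, ITGA7, ITGB2, ITGB3, ITGB4, FERMT1, PARVA, PTK2 and SRC were not matched.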

Additional observations from a re-analysis of the deposited data

Results flagged for a closer look

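The responses of 2 members to LY500307 differed between knockout and control cells by the interaction test of edgeR. The difference was -0.58 for ITGB2 (log2, adjusted p = 0.000724), where both LY500307 knockout libraries lay below all other libraries. It was -0.33 for ITGB5 (log2, adjusted p = 0.0299), where both LY500307 control libraries lay above all other libraries. The ITGB5 difference was lost when any of 5 single libraries was left out.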

How the results depend on the processing

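No member difference called in the main analysis changed sign under the alternatives, while some small differences that were not called did, such as LPP by knockout under vehicle (-0.02, and 0.03 with library totals) and ITGA3 with LY500307 in control cells (-0.01, and 0.06). With library totals the split of called members with LY500307 turned from 7 higher and 8 lower to 10 and 6 in control cells, and from 1 and 13 to 4 and 10 in knockout cells. With 1 library left out, members called in knockout against control numbered 26 to 27 of a main 28 under vehicle and 27 to 28 of 28 under LY500307, those at least 2-fold 4 to 5 of 5 and 4 to 7 of 7, those called with LY500307 9 to 14 of 15 in control cells and 12 to 14 of 14 in knockout cells, and the interaction 1 to 2 of 2. At least 2-fold under LY500307, library totals gave 5 members. Called under every alternative were 25 of 28 members for knockout under vehicle, 27 of 28 under LY500307, 8 of 15 and 11 of 14 for LY500307 in control and knockout cells, and 1 of 2 for the interaction. Not called in the main analysis but called under an alternative were ITGA4, TLN1, TLN2, ILK and LIMS1 with LY500307 in control cells, ITGA2, FERMT2 and BCAR1 in knockout cells, and TLN2 in the interaction. With the replicate block the members called numbered 28, 28, 17, 16 and 3 in the order of the comparisons. Over all genes the interaction called 218, against 350 without a filter, 643 with the block and 95 to 262 with 1 library left out. LY500307 in control cells called 3550 genes, against 2160 to 2326 with 1 library left out, and in knockout cells 2759, against 1422 to 2256. Library totals moved the median of all genes by up to 0.07 (log2). The cause of these changes was not tested. A lone library left in a group is assumed to vary like the other groups. With 2 libraries a group and few counts, ITGA7, ITGB4 and the 4 untested members are the least precise.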
